A study of Mus musculus with 12 samples.

Results

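The genes described here encode the phagocyte NADPH oxidase, the enzyme complex with which neutrophils and macrophages make superoxide. They are Cybb and Cyba (the membrane subunits), Ncf1 and Ncf4 (cytosolic subunits), Rac1 and Rac2 (small GTPases) and Hvcn1 (the voltage-gated proton channel). These 7 genes were chosen by name from a list of oxidase genes, out of 21853 genes in the deposited expression table. All 7 are in the table and all 7 passed the filter on low values.

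In a resting phagocyte the oxidase is disassembled. The membrane holds cytochrome b558, a heterodimer of the catalytic NOX2 chain (Cybb) and its partner p22phox (Cyba), which each need the other to be stable. The organizer p47phox (Ncf1) and p40phox (Ncf4), which binds a phosphoinositide of phagosome membranes, wait in the cytosol. When chemoattractant, Fc or integrin receptors fire, p47phox is phosphorylated and the cytosolic subunits and GTP-bound Rac move to the cytochrome, which then passes electrons from NADPH to oxygen. The proton channel (Hvcn1) carries out the protons left behind. Loss of a subunit causes chronic granulomatous disease, and in bone marrow the genes are turned on as granulocytes and monocytes mature.

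Expression was measured by RNA sequencing of whole bone marrow cells of B6 mice, in 4 groups of 3 libraries. Control mice were not irradiated, and no gavage or vehicle is stated for them. TBI mice received 5 Gy of total body irradiation with gamma rays at 0.66 Gy/min and a gavage of the vehicle, 100 µL of olive oil. TBI+DEIX mice received the same irradiation and DEIX by mouth at 25 mg/kg daily for 14 days. DEIX mice received DEIX at 25 mg/kg for 14 days without irradiation, and no route is stated for them. The treatment named in the title is deinoxanthin, a carotenoid of bacteria. Marrow was taken 14 days after irradiation. The comparison of TBI with control therefore also carries the vehicle, and that of DEIX with control carries whatever handling the controls did not have. A volume of olive oil is given for TBI mice only, so TBI+DEIX and TBI may also differ in vehicle. The labels do not say whether the 3 libraries of a group came from separate mice, so the p-values measure only the spread between these libraries.

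The values are FPKM, the fragments of a gene divided by its transcript length and by the size of the library, which can be compared between genes because they are set per length. The table holds no counts, so the depth of each library is unknown. Low values moved in steps of whole reads, and a read was worth from 0.889 to 1.32 times its value in control replicate 1 in the control libraries, from 0.895 to 1.19 in TBI, from 1.51 to 2.16 in TBI+DEIX and from 1.11 to 1.65 in DEIX. A higher worth means fewer reads, so each TBI+DEIX library was shallower than every control and TBI library, and DEIX replicate 1, at 1.65, was shallower than TBI+DEIX replicate 2, at 1.51. The TBI+DEIX libraries also differed most from each other, with a root mean square within-group SD of 0.42 on the log2 scale, against 0.14 in control, 0.23 in TBI and 0.24 in DEIX. The highly expressed neutrophil genes S100a8, S100a9 and Ngp were listed at 0 in 2, 4 and 5 libraries, as estimates that failed, which changes the sum of a library's FPKM. On a scale that sets all libraries to the same sum (the TPM scale), the median change of all genes moved from 0.02 to -0.12 for DEIX against control, from 0.00 to -0.12 for TBI+DEIX against TBI and from 0.02 to -0.09 for TBI+DEIX against control. The share of called genes that were higher moved from 22.3% to 9.49% for TBI against control, from 62.4% to 19.1% for DEIX against control, from 57.9% to 34.4% for TBI+DEIX against TBI and from 56.2% to 30.6% for TBI+DEIX against control. It moved from 31.4% to 16.6% for TBI+DEIX against DEIX on the TPM scale without those 3 genes.

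Upstream sequence is shown for the members whose entry is in the RefSeq promoter table, Cybb, Ncf1 and Cyba, because Cybb and Ncf1 had nearly the same pattern over the libraries and Cyba, whose protein is the partner of that of Cybb, did not. Each stretch holds the 250 bases before the RefSeq transcription start on GRCm38.p6, 5′ to 3′ on the strand of the gene, all 3 on the minus strand. Capitals mark GGAA or its reverse complement TTCC, the core of sites for ETS factors such as PU.1, which is encoded by Spi1. The windows lie at chrX:9469325-9469574 for Cybb, chr5:134229626-134229875 for Ncf1 and chr8:122432941-122433190 for Cyba.
Cybb: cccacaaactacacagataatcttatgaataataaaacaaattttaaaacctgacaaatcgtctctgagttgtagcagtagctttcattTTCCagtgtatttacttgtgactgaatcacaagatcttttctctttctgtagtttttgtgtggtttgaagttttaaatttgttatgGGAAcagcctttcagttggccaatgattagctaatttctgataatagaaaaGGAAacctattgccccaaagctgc
Ncf1: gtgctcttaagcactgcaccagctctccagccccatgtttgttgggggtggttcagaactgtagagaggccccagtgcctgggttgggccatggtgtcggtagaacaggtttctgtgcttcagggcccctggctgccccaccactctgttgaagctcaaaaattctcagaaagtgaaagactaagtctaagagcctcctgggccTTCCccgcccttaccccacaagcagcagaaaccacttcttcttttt
Cyba: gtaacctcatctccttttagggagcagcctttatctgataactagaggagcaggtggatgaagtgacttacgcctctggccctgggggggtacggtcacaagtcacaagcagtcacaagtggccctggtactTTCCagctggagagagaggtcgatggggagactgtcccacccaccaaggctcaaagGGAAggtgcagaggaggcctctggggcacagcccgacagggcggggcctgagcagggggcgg

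The Cybb stretch held 3 such cores, that of Cyba 2 and that of Ncf1 1, and the core was searched after the other motifs had been. A core of this kind was present in 93.4% of 32851 promoters of the same length, with a median of 3, so holding a core sets none of these genes apart. Longer motifs were searched on both strands: GAGGAA, bound by PU.1, GGAA followed after NN by GAAA, where PU.1 and an IRF factor such as IRF8 sit together, and TTGCNNAA, bound by C/EBP factors. None was found in the 250 bases of the 3 genes, while 23.3%, 2.3% and 9.56% of all promoters held them. When the 50 bases after the start were added, Cybb held a match to the joint PU.1 and IRF motif on the opposite strand, from base 4 after the start, with a GAGGAA match overlapping it from base 10. That stretch, at chrX:9469304-9469333, reads as follows, with the match in capitals.
Cybb start: caaagctgctgtTTTCATTTCCtcatcaga

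That joint motif was present in 2.72% of all promoters of 300 bases and a GAGGAA match in 28.3%. The RefSeq start of Cybb lies 18447 bp from the outermost start of the gene in GENCODE vM21, whereas that of Cyba lies 10 bp away and that of Ncf1 coincides with it. A match describes letters only, and binding was not measured here.

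In GENCODE vM21 on GRCm38, Cybb spans chrX:9435252-9487771 and Cyba chr8:122424776-122432930, both on the minus strand. Ncf1 (chr5:134220053-134229625, minus), Rac1 (chr5:143503634-143528036, minus) and Hvcn1 (chr5:122206804-122242297, plus) share a chromosome. Ncf4 (chr15:78244801-78262580, plus) and Rac2 (chr15:78559167-78572783, minus) are near neighbours, as taken up further on. Of the exonic bases of Ncf1, 408 overlap Gtf2ird2 on the opposite strand, 2309 of Rac1 overlap Daglb and 1574 of Hvcn1 overlap Tctn1. Group means of those overlapping genes reached no more than 2.26 FPKM for Gtf2ird2, 9.75 for Daglb and 3.13 for Tctn1, far under the members they overlap. The library kit keeps strand, but the strand setting of the counting is not given in the sources used here.

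The oxidase genes were among the most abundant transcripts of the marrow. By mean FPKM over the 12 libraries, Cyba ranked 104 of 21853 genes, Ncf1 135, Cybb 147, Rac2 160, Ncf4 303, Rac1 428 and Hvcn1 1016. Cyba was the highest of the 7 in 10 of 12 libraries, and Ncf1 in the other two, TBI+DEIX replicate 1 and DEIX replicate 3. Ncf4, Rac1 and Hvcn1 took the lowest places, in that order, in all 12 libraries. In control, Cyba lay above Ncf1 without overlap, while the ranges of Ncf1, Rac2 and Cybb overlapped from neighbour to neighbour. In TBI, TBI+DEIX and DEIX, the order by mean was Cyba, Ncf1, Cybb and Rac2, and each overlapped the next. Together the 7 genes took from 0.355% to 0.441% of the summed FPKM of a control library, from 0.406% to 0.517% in TBI, from 0.509% to 0.635% in TBI+DEIX and from 0.414% to 0.497% in DEIX. With S100a8, S100a9 and Ngp left out of the sums, these shares were from 0.429% to 0.441% in control, 0.485% to 0.578% in TBI, 0.627% to 0.692% in TBI+DEIX and 0.494% to 0.6% in DEIX, and every control library lay under every other library.

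**Figure D1:**
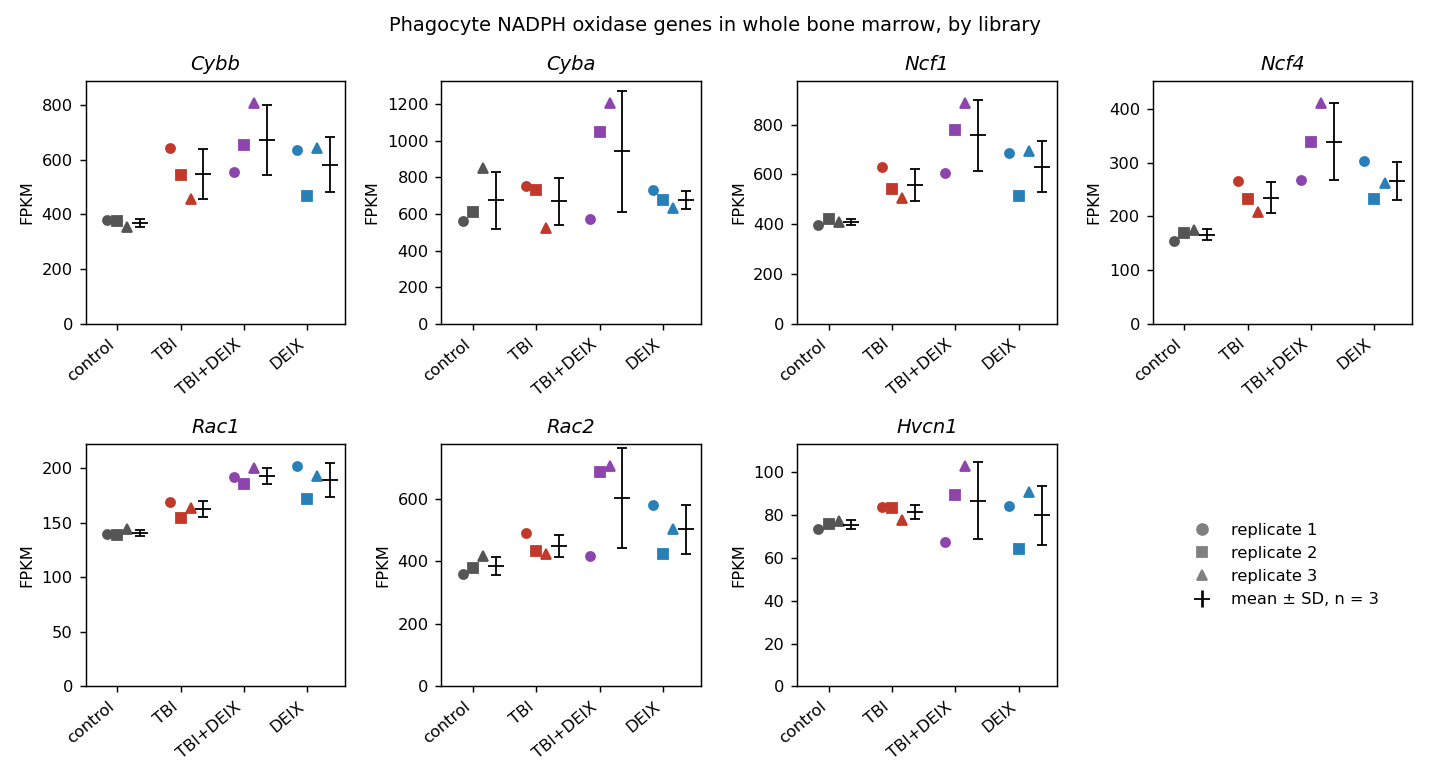
FPKM of the 7 oxidase genes in each of the 12 libraries (y axes from 0), by group, with replicates 1 to 3 as circle, square and triangle and the mean ± SD of the group (n = 3) in black. For Cybb, Ncf1 and Ncf4 all control libraries lie under all libraries of the other groups, whereas for Cyba and Hvcn1 the TBI+DEIX and control libraries overlap.

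Of the membrane subunits, Cybb had the clearer pattern. It stood at 378, 375 and 353 FPKM in control replicates 1 to 3, at 641, 545 and 457 in TBI, at 556, 652 and 807 in TBI+DEIX and at 637, 466 and 643 in DEIX. Every treated library was above every control library, and the treated groups overlapped each other. Group means were 369 ± 13.4 FPKM in control, 548 ± 92.1 with TBI, 672 ± 126 with TBI+DEIX and 582 ± 101 with DEIX (SD, n = 3).

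Cyba stood at 563, 609 and 850.0 FPKM in control, at 753, 732 and 522 in TBI, at 571, 1050.1 and 1206 in TBI+DEIX and at 729.7, 675 and 632 in DEIX. The control range covered the whole DEIX range, and only TBI+DEIX replicates 2 and 3 lay above all other libraries. Its within-group SD of 0.36 on the log2 scale was the largest of the 7 genes, and almost as large as its SD over all 12 libraries, 0.36.

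The cytosolic subunits followed Cybb. Ncf1 stood at 397, 420.4 and 411 FPKM in control, at 629, 542 and 504 in TBI, at 605, 779 and 887 in TBI+DEIX and at 686, 515 and 695 in DEIX. Ncf4 stood at 155, 169.9 and 174 FPKM in control, at 265, 232 and 208 in TBI, at 268, 339 and 412 in TBI+DEIX and at 303, 232 and 263 in DEIX. For both genes the control libraries were the lowest 3 of the 12, and for Ncf4 every TBI+DEIX library was also above every TBI library.

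Of the GTPases, Rac2 is the form of blood cells and Rac1 is found in nearly all cells. Rac1 stood at 139, 139 and 144 FPKM in control, at 169, 155 and 163 in TBI, at 192, 185 and 200.2 in TBI+DEIX and at 202, 172 and 193 in DEIX. It had the smallest within-group SD of the 7 genes, 0.08 on the log2 scale, and its 4 groups fell into control, then TBI, then the overlapping TBI+DEIX and DEIX groups. Rac2 stood at 359.8, 377 and 416 FPKM in control, at 490.2, 434 and 424 in TBI, at 418, 686 and 706 in TBI+DEIX and at 580.1, 423 and 503 in DEIX. TBI+DEIX replicate 1 was the lowest treated library for Rac2, just above the highest control.

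The proton channel gene Hvcn1 varied least between groups. It stood at 73.5, 75.8 and 77.3 FPKM in control, at 83.6, 83.2 and 77.6 in TBI, at 67.3, 89.5 and 103 in TBI+DEIX and at 84.4, 64.2 and 90.8 in DEIX. TBI+DEIX replicate 1 and DEIX replicate 2 lay under all control libraries, and the other libraries of those groups above them.

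The tests were made with limma on log2(FPKM + 1) over 10994 genes, with Benjamini-Hochberg adjustment over all of them, and a gene was called at an adjusted p under 0.05. A log2 change is a difference of group means on that scale. In whole marrow, fewer cells of a type and less RNA per cell cannot be told apart. The 3 comparisons with control share the same 3 control libraries, and those with TBI+DEIX share its 3 libraries, so they are not independent of each other.

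The comparison with the most calls was TBI+DEIX against control, where 5 of the 7 genes rose and none fell. The background was large: 30.0% of all tested genes were called, 16.9% as higher and 13.1% as lower. Ncf4 rose by 1.00 ± 0.17 (log2, SE; 2.01-fold), with a limma adjusted p of 0.00171. Ncf1 rose by 0.87 ± 0.18 (1.83-fold, limma adjusted p 0.00511) and Cybb by 0.85 ± 0.19 (1.80-fold, limma adjusted p 0.00775). These 3 calls held under all 15 alternatives, with adjusted p from limma up to 0.0148 for Ncf4, 0.0275 for Ncf1 and 0.0311 for Cybb.

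The GTPases rose less. Rac1 rose by 0.45 ± 0.10 (1.37-fold, limma adjusted p 0.00616) and lost its call on the TPM scale, at 0.32 with a limma adjusted p of 0.249, and on that scale without the 3 failed genes, at 0.36 with a limma adjusted p of 0.0827. Rac2 rose by 0.61 ± 0.20 (1.53-fold, limma adjusted p 0.0431), a call close to the threshold that held under 5 of 15 alternatives. It was lost on leaving out any control library or TBI+DEIX replicate 2 or 3, with limma adjusted p from 0.0740 to 0.130, and not on leaving out TBI+DEIX replicate 1, with 0.86 and a limma adjusted p of 0.00110. Cyba, at 0.44 ± 0.28 (limma adjusted p 0.260), and Hvcn1, at 0.17 ± 0.16 (limma adjusted p 0.438), were not called. Without TBI+DEIX replicate 1 Cyba was called too, at 0.76 with a limma adjusted p of 0.0135, which made 6 of 7 genes. The median change of the 7 genes was 0.61, against 0.02 over all genes tested.

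TBI+DEIX libraries were all above the control libraries for Cybb, Ncf1, Ncf4, Rac1 and Rac2, 5 of 7 genes, and for 23.9% of all tested genes. Each of these 5 was therefore higher in 3 of 3 TBI+DEIX libraries than in any control.

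In DEIX against control, 2 of the 7 genes rose and none fell, with 7.24% of all tested genes called, 4.52% as higher and 2.72% as lower. Ncf4 rose by 0.67 ± 0.17 (1.59-fold, limma adjusted p 0.0387) and Rac1 by 0.42 ± 0.10 (1.34-fold, limma adjusted p 0.0296). Both calls rest on few libraries. Leaving out any control library, DEIX replicate 1 or DEIX replicate 3 ended both, with Ncf4 then between 0.57 and 0.70 and limma adjusted p from 0.102 to 0.159, and the TPM scale ended both. On the TPM scale without S100a8, S100a9 and Ngp the count was again 2 but the genes were others in part: Ncf4 (0.63, limma adjusted p 0.0159) and Ncf1 (0.57, limma adjusted p 0.0405) were called and Rac1 was not (0.38, limma adjusted p 0.148). Cybb, at 0.64 ± 0.19 (limma adjusted p 0.0676), and Ncf1, at 0.61 ± 0.18 (limma adjusted p 0.0655), had changes close to that of Ncf4 and missed the threshold. Without DEIX replicate 2, the lowest DEIX library for 6 of these genes, 4 genes were called. That library also had the highest erythroid marker sum of its group, 11409.6 FPKM, and the part of this in the count was not tested. Rac2 stood at 0.38 ± 0.20 (limma adjusted p 0.286). Cyba stood at 0.03 ± 0.28 and Hvcn1 at 0.06 ± 0.16, and both values were below 0 on the TPM scale. The libraries did not overlap, with DEIX higher, for Cybb, Ncf1, Ncf4, Rac1 and Rac2, against 23.4% of all tested genes, and the median change of the 7 was 0.42 against 0.02 over all genes.

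In TBI against control, none of the 7 genes was called by limma, with 3.99% of all tested genes called, 0.891% as higher and 3.10% as lower. At an unadjusted p under 0.05 there were 3 genes, Cybb, Ncf1 and Ncf4, against 18.1% of all genes. Cybb stood at 0.56 ± 0.19 (1.47-fold), with a 95% interval from 0.14 to 0.98 and a limma adjusted p of 0.151. Ncf4 stood at 0.49 ± 0.17 (limma adjusted p 0.149) and Ncf1 at 0.44 ± 0.18 (limma adjusted p 0.227).

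Rac2 stood at 0.22 ± 0.20, Rac1 at 0.20 ± 0.10 and Hvcn1 at 0.11 ± 0.16. The value of Cyba was -0.01 ± 0.28, with a 95% interval from -0.62 to 0.61, and it was 0.00 on the TPM scale. The TBI libraries were above the control libraries without overlap for 6 of the 7 genes, all but Cyba, against 22.0% of all tested genes. When only these 6 libraries were fitted, 3 of the 7 genes were called, Cybb, Ncf1 and Ncf4, in a fit that called 1417 genes in place of 439. The median change of the 7 was 0.22, against 0.05 over all genes tested.

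In TBI+DEIX against TBI, which asks what DEIX added to irradiation, none of the 7 was called by limma, with 8.10% of all tested genes called, 4.69% as higher and 3.41% as lower. At an unadjusted p under 0.05 there were 3 genes, against 27.2% of all genes. All 7 values were above 0, with Hvcn1 below 0 on the TPM scale. They ran from 0.51 ± 0.17 for Ncf4 (limma adjusted p 0.0807) and 0.43 ± 0.18 for Ncf1 (limma adjusted p 0.158) through 0.25 ± 0.10 for Rac1 (limma adjusted p 0.134) to 0.07 ± 0.16 for Hvcn1 (limma adjusted p 0.824). Cyba stood at 0.44 ± 0.28, Rac2 at 0.39 ± 0.20 and Cybb at 0.29 ± 0.19. Libraries did not overlap for Ncf4 and Rac1, 2 of 7 genes, against 14.5% of all genes.

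TBI+DEIX replicate 1 decided this count. Without it 4 genes were called: Cyba at 0.77 (limma adjusted p 0.0226), Ncf4 at 0.67 (limma adjusted p 0.0118), Rac2 at 0.63 (limma adjusted p 0.0127) and Ncf1 at 0.58 (limma adjusted p 0.0219). The same fit called 2836 genes in place of 891. Leaving out any other library of the comparison gave no call.

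In TBI+DEIX against DEIX, which asks what irradiation added under DEIX, none of the 7 was called by limma or had an unadjusted p under 0.05, with 2.57% and 16.2% of all tested genes passing. Values ran from 0.03 ± 0.10 for Rac1, whose sign changed on the TPM scale without the 3 failed genes, to 0.41 ± 0.28 for Cyba. Libraries overlapped for all 7, while those of TBI+DEIX were above those of DEIX for 8.72% of all genes. The interaction, the DEIX difference in irradiated mice minus that in unirradiated mice, was called for none of the 7 and had an unadjusted p under 0.05 for none, with 0.200% and 7.50% of all tested genes passing. It stood at -0.35 ± 0.27 for Cybb, -0.19 ± 0.26 for Ncf1, -0.18 ± 0.14 for Rac1, -0.15 ± 0.24 for Ncf4 and 0.41 ± 0.39 for Cyba, with limma adjusted p of at least 0.910. The 95% interval for Cybb ran from -0.95 to 0.25, so that neither an equal nor a clearly smaller DEIX difference after irradiation was shown.

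**Figure D2:**
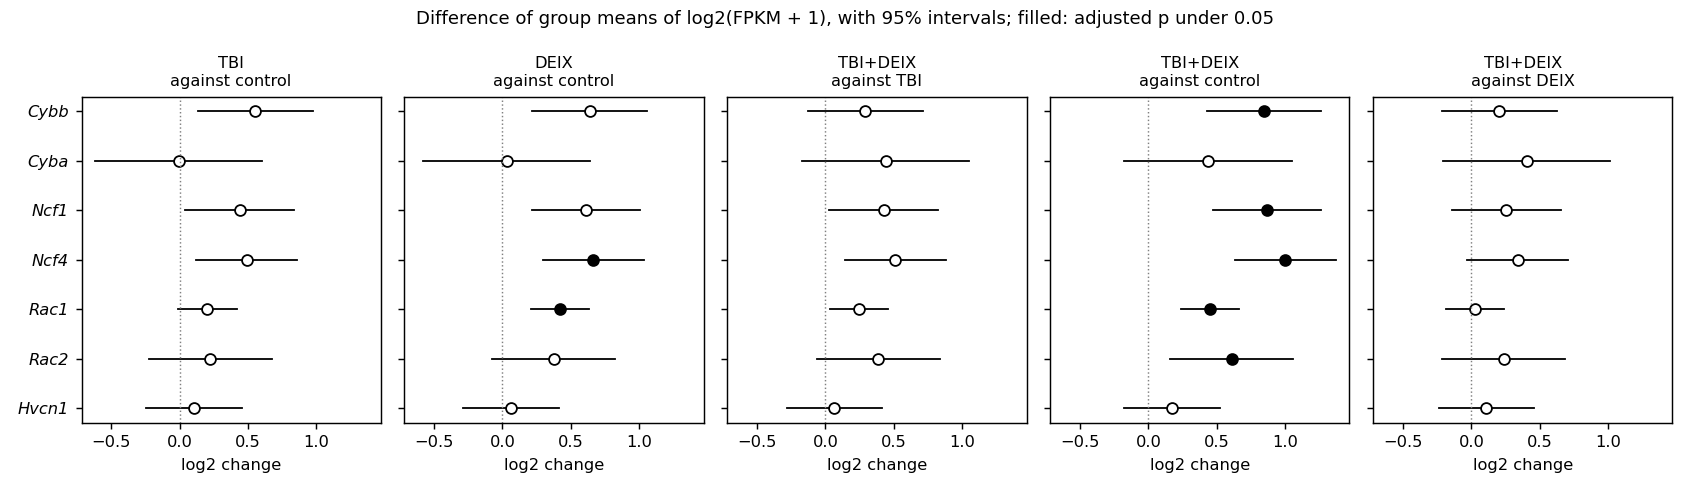
Difference of group means of log2(FPKM + 1) (x axis) for the 7 oxidase genes (y axis) in 5 comparisons, with 95% intervals from limma and filled points for an adjusted p under 0.05. The 5 filled points in TBI+DEIX against control are Cybb, Ncf1, Ncf4, Rac1 and Rac2, and those in DEIX against control are Ncf4 and Rac1.

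Ratios of FPKM between subunit genes of the same library do not depend on how the library was scaled. The ratio of Cybb to Cyba, the chains of the cytochrome, was 0.672, 0.615 and 0.416 in control replicates 1 to 3, 0.852, 0.743 and 0.875 in TBI, 0.974, 0.621 and 0.669 in TBI+DEIX and 0.873, 0.690 and 1.02 in DEIX. All TBI and DEIX libraries were above all control libraries, and TBI+DEIX overlapped control. The mean log2 ratio was 0.56 higher in TBI than in control and 0.61 higher in DEIX than in control, each with an exact two-sided permutation p of 0.1, the smallest that 3 against 3 libraries allow, and 0.375 after adjustment over the 15 ratio tests. Without control replicate 3, where Cyba was highest among controls and the ratio lowest, the differences were 0.35 and 0.40.

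The ratio of Ncf1 to Ncf4 was nearly constant, from 2.16 to 2.65 over the 12 libraries. It was 2.47 ± 0.103 in control, 2.38 ± 0.0448 with TBI, 2.24 ± 0.0756 with TBI+DEIX and 2.38 ± 0.233 with DEIX (SD, n = 3). The TBI+DEIX libraries lay under the TBI libraries and under the control libraries without overlap, with mean log2 differences of -0.09 and -0.14 and exact permutation p of 0.1 in each case, 0.375 adjusted. The ratio of Rac2 to Rac1 was 2.73 ± 0.150 in control, 2.77 ± 0.154 with TBI, 3.13 ± 0.833 with TBI+DEIX and 2.64 ± 0.208 with DEIX, and all 5 comparisons overlapped, with exact permutation p from 0.4 to 0.7. Within TBI+DEIX it was 2.18 in replicate 1 and 3.70 and 3.52 in replicates 2 and 3, the lowest and the highest 2 values of the 12 libraries.

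**Figure D3:**
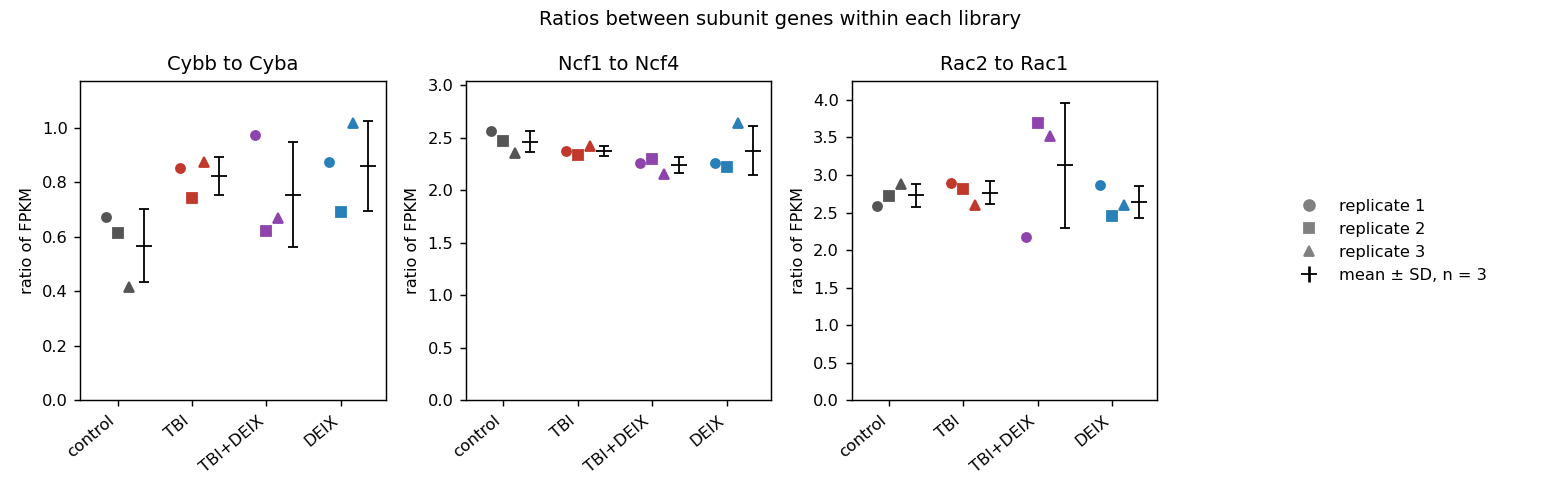
Ratio of FPKM within a library (y axes from 0) for Cybb to Cyba, Ncf1 to Ncf4 and Rac2 to Rac1, by group, with replicates as circle, square and triangle and mean ± SD (n = 3). The 3 control ratios of Cybb to Cyba, from 0.416 to 0.672, lie under those of TBI and DEIX, and TBI+DEIX replicate 1 stands apart from replicates 2 and 3 in the Cybb to Cyba and the Rac2 to Rac1 panels.

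The likeness of 2 patterns was measured as the root mean square difference of log2(FPKM + 1) over the 12 libraries, each gene centred on its mean, so that a smaller value is a closer match. These values only describe libraries that share their groups and depth. Cybb, Ncf1 and Ncf4 formed the closest set, with 0.08 between Cybb and Ncf1, 0.08 between Ncf1 and Ncf4 and 0.12 between Cybb and Ncf4. Among 8180 genes compared, Ncf1 was the second closest to Cybb and the third closest to Ncf4, and from Ncf1 the ranks were 6 for Cybb and 9 for Ncf4.

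Cyba was 0.34 from Cybb, its partner, which ranked 2185 among the genes compared with Cyba, and its closest member was Rac2 at 0.21. The genes closest to Cyba were Pfn1 (profilin, an actin-binding protein), Osm (the cytokine oncostatin M) and Cdk2ap2, at 0.13 to 0.15.

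For the other members the closest genes were as follows. Sort1, the sorting receptor sortilin, was closest to Cybb at 0.07, ahead of Ncf1, with Tspan5 next at 0.09. Rab6a, a GTPase of Golgi transport, Tcn2, which carries vitamin B12 in blood, and Fam160a2 were closest to Ncf1 at 0.06 to 0.07. Ltb4r1, the receptor for the neutrophil attractant leukotriene B4, and Agpat2 were closest to Ncf4 at 0.07. Pitpna, Ap5z1 and Rab2a were closest to Rac1 at 0.04 to 0.05, Ubtd1, Ppp1r18 and Ostf1 to Rac2 at 0.05 to 0.07, and Klhl36, Mlec and Hk2, a hexokinase, to Hvcn1 at 0.06 to 0.07. No member was among the 3 closest genes of Cyba, Rac1, Rac2 or Hvcn1.

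**Figure D4:**
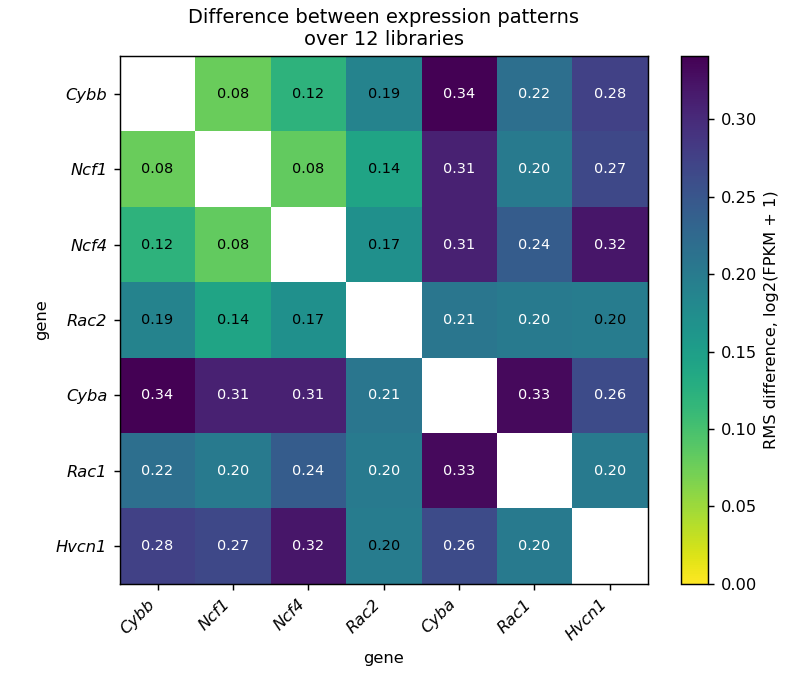
Root mean square difference of log2(FPKM + 1) between pairs of genes (both axes) over the 12 libraries, each gene centred on its own mean; darker cells are less alike. Cybb, Ncf1 and Ncf4 are within 0.12 of each other, and Cyba is 0.34 from Cybb.

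Ncf4 and Rac2 lie on chromosome 15 with 296.6 kb between them, and 10 other genes of the table lie in that gap. Next to Ncf4 lie Csf2rb2, for a beta chain of the interleukin-3 receptor, and Csf2rb, for the beta chain shared by the receptors for GM-CSF, interleukin-3 and interleukin-5. GM-CSF primes the oxidase of neutrophils. Csf2rb stood at 64.8 ± 5.27 FPKM in control, 86.2 ± 24.3 with TBI, 196 ± 38.8 with TBI+DEIX and 139 ± 31.4 with DEIX (SD, n = 3). By limma it rose by 1.57 in TBI+DEIX against control (adjusted p 0.000637), by 1.07 in DEIX against control (adjusted p 0.0190) and by 1.19 in TBI+DEIX against TBI (adjusted p 0.0177). Csf2rb2 rose in the same 3 comparisons, by 1.70, 1.21 and 1.27. The next genes toward Rac2 were not called in any comparison with control or of TBI+DEIX with TBI: Tst, Mpst, Kctd17, Il2rb and C1qtnf6. Tex33, Tmprss6 and Sstr3 were under the filter. Apart from Csf2rb, a member of the receptor list, these genes were named for their place.

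Other forms of the enzyme had almost no transcripts. Under the filter were 9 genes: Nox1, Nox3, Nox4, the organizer and activator genes Noxo1 and Noxa1, and the dual oxidase genes Duox1, Duox2, Duoxa1 and Duoxa2, none of which exceeded 0.614 FPKM in any library. Cybc1 and Nrros, of the same list, were tested. Cybc1 encodes a chaperone needed to make the cytochrome, and Nrros a protein that limits it by degrading NOX2. Cybc1 stood at 64.5 ± 3.48 FPKM in control and 65.3 ± 17.3 in TBI+DEIX, with a log2 value of -0.02 (limma adjusted p 0.955), and Nrros at 69.0 ± 1.66 and 76.7 ± 7.31, with 0.15 (limma adjusted p 0.316).

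Of the receptors that trigger or restrain the burst, 8 of 14 rose and none fell in TBI+DEIX against control. Their median was 0.91, against 0.02 over all genes. Of all tested genes 16.9% were called as higher there and 13.1% as lower. The 8 were the chemoattractant receptors Fpr1, Fpr2 and C5ar1, the integrin chains Itgam and Itgb2, the Fc receptor Fcgr4, the endotoxin receptor Tlr4 and Csf2rb. Itgb2, the shared beta chain of leukocyte integrins, went from 316 ± 5.96 FPKM to 609 ± 63.7, a rise of 0.94 (limma adjusted p 0.000817). C5ar1, the receptor for complement C5a, rose by 1.00 (limma adjusted p 0.0175). Fcer1g, the signalling chain of Fc receptors and the most abundant of the list, was not called, at 0.07 (limma adjusted p 0.921). In DEIX against control 4 of 14 rose (Csf2rb, Fcgr2b, Itgam and Itgb2), where 4.52% of all tested genes were called as higher. Of these, Fcgr2b encodes an inhibitory Fc receptor, which restrains the burst and does not trigger it. In TBI+DEIX against TBI 3 rose (Csf2rb, Fcgr4 and Itgb2), where that share was 4.69%, and in TBI against control none was called.

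Of 26 genes of oxidase activation and Rac regulation, 11 rose and 2 fell in TBI+DEIX against control, where 16.9% of all tested genes were called as higher and 13.1% as lower. Their median change was 0.35, against 0.02 over all tested genes. Those that rose included the Rac exchange factors Vav1 (0.48) and Prex1 (0.36), the p21-activated kinases Pak1 (0.70) and Pak2 (0.80), the kinases Prkcb (0.44) and Akt1 (0.52), which can phosphorylate p47phox, and Pik3c3 (0.27), which makes the lipid that p40phox binds. Vav2, another Rac exchange factor, and Bcr, which turns Rac off, fell by 1.19 and by 0.38. Vav2 was low, at 5.25 ± 0.327 FPKM in control and 1.77 ± 0.565 in TBI+DEIX, and also fell by 0.79 in TBI against control (limma adjusted p 0.0207) and by 0.70 in DEIX against control (limma adjusted p 0.0291). The most abundant genes of the list, Arhgdib (1218 FPKM on average), Cdc42, Arhgdia and Prkcd, were not called. In TBI against control Prdx6, which provides a phospholipase A2 activity that aids the oxidase, was the only gene of the list that rose, by 0.35 (limma adjusted p 0.0464).

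Of 10 genes of NADPH supply, 4 rose and 1 fell in TBI+DEIX against control, beside 16.9% and 13.1% of all tested genes. The median of the 10 was 0.30, against 0.02 over all tested genes. G6pdx, which starts the pentose phosphate pathway, went from 166 ± 2.89 FPKM to 453 ± 99.1, a rise of 1.42 (limma adjusted p 0.00135), beside 1.00 for Ncf4. Pgd rose by 0.75, Tkt by 0.77 and Nadk, the NAD kinase, by 0.57, while Pgls, whose enzyme acts between those of G6pdx and Pgd, fell by 0.71 (limma adjusted p 0.00650). In DEIX against control G6pdx rose by 0.93 (limma adjusted p 0.0344) and Pgls fell by 0.59 (limma adjusted p 0.0444).

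Of 12 genes that use or dispose of superoxide and peroxide, 1 rose and 3 fell in TBI+DEIX against control. These 4 calls are a share near that of all tested genes, of which 30.0% were called, and the median change was -0.27, against 0.02 over all tested genes. Txnrd1, a thioredoxin reductase, rose by 0.81 (limma adjusted p 0.000512), and it also rose by 0.56 in TBI against control (limma adjusted p 0.0151) and by 0.42 in DEIX against control (limma adjusted p 0.0387). Sod1, the cytosolic superoxide dismutase, fell by 0.69, Prdx1 by 0.57 and Prdx2, a peroxiredoxin abundant in red cells, by 1.20. Mpo, the myeloperoxidase that makes hypochlorous acid from the peroxide, was the most abundant of the list and was not called, at 1426 ± 152 FPKM in control and 1011 ± 474 in TBI+DEIX (log2 value -0.59, limma adjusted p 0.199).

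Of 8 transcription factors known to act at oxidase genes, 2 rose and 2 fell in TBI+DEIX against control, with a median of -0.24 against 0.02 over all tested genes, of which 16.9% were called as higher and 13.1% as lower. Spi1, which encodes PU.1, went from 165 ± 17.4 FPKM to 274 ± 54.6, a rise of 0.71 (limma adjusted p 0.0109), and also rose against TBI, by 0.68 (limma adjusted p 0.0386). Irf8, which acts with PU.1 at Cybb and favours monocytes over granulocytes, went from 95.02 ± 1.40 FPKM in control to 25.7 ± 9.92, a log2 value of -1.92 (limma adjusted p 0.000316), and stood at 51.3 ± 7.06 in TBI and 77.4 ± 6.74 in DEIX. It was also lower in TBI+DEIX than in TBI, with a log2 value of -1.03 (limma adjusted p 0.0240), and than in DEIX, with -1.62 (limma adjusted p 0.00639). Cebpa was lower than in DEIX too, with -0.84 (limma adjusted p 0.0359). Cebpb rose by 0.60 and Elf1 fell by 0.35. Cebpe, of late granulocyte maturation, was not called, at 0.40 (limma adjusted p 0.407).

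Whole marrow holds many cell types, and markers of several shifted in these comparisons, not all in the direction of the oxidase genes. Of 12 markers of maturing neutrophils, 7 rose in TBI+DEIX against control (Cd177, Cxcr2, Fpr1, Itgam, Ltf, Mmp9 and Padi4), with a median of 0.99, 2 rose in DEIX against control, with a median of 0.64, and none was called in TBI against control, with a median of 0.27, or in TBI+DEIX against TBI, with a median of 0.50. The share of all tested genes called as higher was 16.9% in TBI+DEIX against control and 4.52% in DEIX against control. The summed FPKM of the 12 ran from 22445 to 31063 in control, from 26323 to 32784 in TBI and from 27111 to 37725 in DEIX. In TBI+DEIX it was 22437 in replicate 1 and 54109 and 52241 in replicates 2 and 3, so the library that was lowest of its group for 6 of the 7 oxidase genes, all but Rac1, also had the lowest neutrophil marker sum of all 12. The sum is led by a few abundant genes, and the single markers of that library went both ways. Of the 12, 8 were above every control library (Cd177, Cxcr2, Fpr1, Itgam, Lcn2, Ltf, Mmp9 and Padi4) and 4 were below every one (Camp, Csf3r, Mmp8 and Retnlg). Retnlg was at 2148 FPKM there, against 6604 to 9446 in control. No TBI+DEIX library had less than 1311 FPKM of Cd177, against 536 to 630.2 in control. In replicates 2 and 3 all 12 were above every control. Replicate 1 also had more Cybb, Ncf1, Ncf4, Rac1 and, barely, Rac2 than any control. None of these markers was under 1 FPKM throughout a group.

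In TBI+DEIX against control 13.1% of all tested genes were called as lower. Of 6 promyelocyte markers, 1 fell (Elane), a share near that of all genes, and none rose. Of 12 markers of monocytes and macrophages, which also carry the oxidase, 2 fell (Cx3cr1 and Ms4a6c), again near that share, and the sum of the 12 ran from 2066 to 2117 FPKM in control, from 1354 to 2166 in TBI, from 864 to 2742 in TBI+DEIX, with replicate 1 lowest, and from 2230 to 2689 in DEIX. Every DEIX library was thus above every control in this sum, as it was for 5 of the 7 oxidase genes. The single markers went both ways. In each DEIX library 6 or 7 of the 12 were above every control library and 4 or 5 were below every one. Mrc1, C1qa, C1qb and Vcam1 were below in all 3. In DEIX against control F13a1, a coagulation factor chain of monocytes, rose by 0.98 (limma adjusted p 0.0234), and the complement genes C1qa and C1qb, of resident macrophages, fell by 1.66 and by 1.46 (limma adjusted p 0.00447 for both), where 4.52% of all tested genes were called as higher and 2.72% as lower.

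The B lineage sum was under that of control in every treated library. Of 12 B lineage markers, 10 fell in TBI+DEIX against control, where 13.1% of all tested genes were called as lower. The sum of the 12 ran from 543 to 665 FPKM in control and from 35.0 to 442 in TBI. It ran from 8.91 to 235 in TBI+DEIX and from 74.2 to 114 in DEIX. Of 12 erythroid markers, 8 fell in TBI+DEIX against control. Their sum ran from 4849 to 7934 FPKM in control, from 2557 to 12327 in TBI, from 303 to 2282 in TBI+DEIX and from 1941 to 11410 in DEIX. In TBI against control 8 of the 12 had log2 changes above 0, with a median of 0.35, and none was called. The megakaryocyte and platelet sum was also under control in every treated library, at 105.7 to 163 FPKM in control, 23.3 to 43.9 in TBI, 21.6 to 38.7 in TBI+DEIX and 59.5 to 99.4 in DEIX. Of its 6 markers, 5 fell in TBI+DEIX against control and 4 in TBI against control, where 3.10% of all tested genes were called as lower. Of 9 T and NK cell markers, 4 fell in TBI+DEIX against control (Gzma, Klrd1, Lck and Ncr1), and so did 2 of 7 markers of eosinophils, basophils and mast cells (Prg2 and Prg3) and 1 of 4 of stroma and endothelium (Pecam1). None of 5 plasma cell markers was called. The part of these shifts in the oxidase results was not tested.

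**Figure D5:**
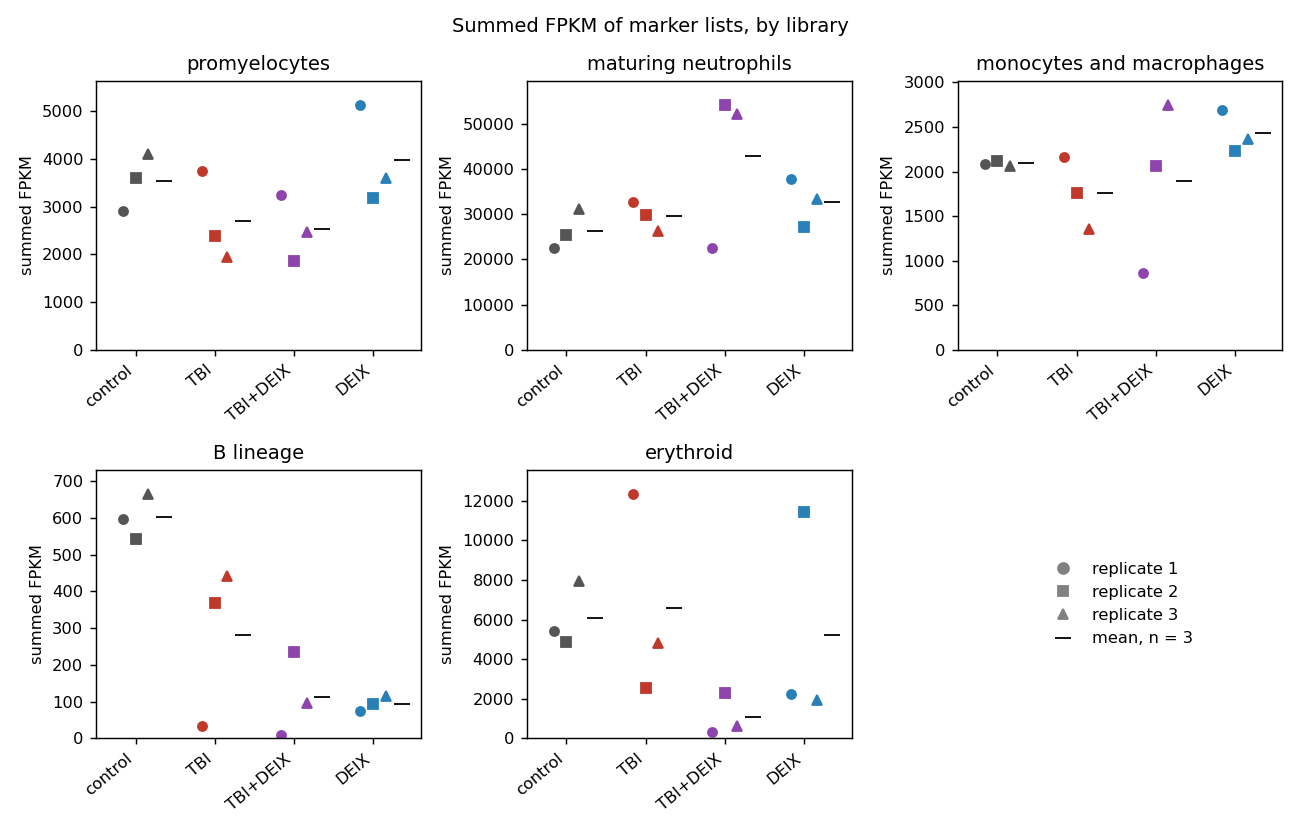
Summed FPKM of 5 marker lists in each of the 12 libraries (y axes from 0), by group, with replicates as circle, square and triangle and the group mean (n = 3) as a bar. The neutrophil sum of TBI+DEIX replicate 1, 22437, is at the level of control although 8 of its 12 single markers are above every control library, and those of replicates 2 and 3 are above all other libraries, while B lineage sums of all treated libraries lie under control.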

How the data were processed

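Per the labels' protocols, libraries were made from total RNA of whole bone marrow with the MGI directional kit. The submitters' processing notes name STAR 2.6, Cufflinks 2.2.1 and mm10, with no parameters, and the annotation is not given in the sources used here. The deposited values are FPKM per gene, as the authors computed them, and hold no counts. All 21853 identifiers matched protein-coding genes of GENCODE vM21. The 12 libraries were grouped by their titles. Genes that reached 1 FPKM in 3 or more libraries entered the tests, on a log2(FPKM + 1) scale, which understates the changes of low genes, made with limma 3.58.1 in R 4.3.3 (lmFit, eBayes with trend), in a single model of the 4 group means; the interaction is a contrast of that model. The fit was tested on simulated data. Ratios were tested by exact permutation. The members and gene lists were chosen with earlier results of these data known. Of each list, the 4 genes of highest mean FPKM and any called gene may be named; each member has the 3 genes of most alike pattern, at a mean FPKM of at least 5. Alternatives were another pseudocount (0.1), no filter or a mean FPKM of at least 5, TPM scaling with and without S100a8, S100a9 and Ngp, median-of-ratios scaling, fits of the compared groups only, a replicate block, array weights and each library left out. Sequences are from RefSeq. Results for some genes of the lists are not reported here.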

Additional observations from a re-analysis of the deposited data

How the results depend on the processing

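Depth is known only in relative terms, and TBI+DEIX replicate 1 decides some values. Its step of 2.16 was the largest and rested on the fewest genes of low value, 1717. In TBI+DEIX against control, the 5 calls became 3 on the TPM scale and 7 with array weights, and from 4 to 6 with a library left out. They became 4, by loss of Rac2, without a filter, with median-of-ratios scaling and with only the compared groups fitted. They also became 4, by loss of Rac1, on the TPM scale without S100a8, S100a9 and Ngp. In DEIX against control, the 2 calls became 1 without a filter, 0 on the TPM scale, 1 with median-of-ratios scaling, 4 with only the compared groups fitted and 5 with array weights, and from 0 to 4 with a library left out. In TBI against control, the 0 calls became 1 on the TPM scale without S100a8, S100a9 and Ngp (Ncf4), 3 with only the compared groups and 7 with array weights, and stayed 0 with any library left out. In TBI+DEIX against TBI, the 0 calls became 6 with array weights and from 0 to 4 with a library left out, and in TBI+DEIX against DEIX 3 with array weights. Array weights did not converge and gave control replicate 2 a weight of 97.5 and TBI+DEIX replicate 1 a weight of 0.0498, so little rests on them. The interaction had no call under any alternative. The cause of these shifts was not tested.

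The replicate block left 4 of the 5 calls in TBI+DEIX against control and 1 of the 2 in DEIX against control, and changed no other count of members. Over all genes it called 3000 in place of 3299 in the first and 640 in place of 796 in the second. Replicate numbers did not pair the libraries: same-numbered libraries correlated from -0.447 to 0.242, and 3 of 15 correlated best with their own number.

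Among single genes 13 values changed sign under an alternative other than leaving out a library, none of them called as reported. Cyba in TBI against control became 0.0011 on the TPM scale, 0.0144 on that scale without the 3 failed genes and 0.24 with array weights. Cyba in DEIX against control became -0.12, -0.0085 and, with median-of-ratios scaling, -0.0171. Hvcn1 became -0.0873 in DEIX against control on the TPM scale, and -0.0666 and -0.0417 in TBI+DEIX against TBI on the TPM scale with and without the 3 genes. Rac1 in TBI+DEIX against DEIX became -0.0209 on the TPM scale without them and -0.0124 with array weights. The interaction became -0.0564 for Rac2 and -0.0658 for Hvcn1 on that scale.

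With a library left out, 23 values of single genes and 3 of ratios changed sign. Ranges were from -0.12 to 0.17 for Cyba in TBI against control, -0.0862 to 0.21 for Cyba and -0.0363 to 0.21 for Hvcn1 in DEIX against control, -0.0685 to 0.23 for Hvcn1 in TBI+DEIX against TBI, and -0.0390 to 0.0769 for Rac1 and -0.0369 to 0.28 for Hvcn1 in TBI+DEIX against DEIX. For the interaction they were -0.30 to 0.0054 for Ncf4, -0.12 to 0.26 for Rac2 and -0.14 to 0.17 for Hvcn1. For Rac2 to Rac1 they were -0.0199 to 0.0645 in TBI against control and -0.11 to 0.0022 in DEIX against control.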
